A study of Mus musculus with 30 samples.

Results

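The effect of a blocking antibody against interleukin-34 (IL-34) on RNA of the whole mouse forebrain was measured in 8 of the 30 libraries of the series, chosen by their labels as the forebrain libraries of the antibody experiment. Wild-type mice received anti-IL34 (4 animals, numbered 2, 10, 11 and 24) or anti-gp120, the control antibody (4 animals, numbered 1, 7, 8 and 15). The anti-IL34 arm had 3 males and 1 female, animal 11, and the anti-gp120 arm had 2 males and 2 females, animals 8 and 15. Each mouse was perfused with saline, 1 hemisphere gave the forebrain library described here, and microglia were isolated from the other with an antibody against CD11b. Each library came from a single animal. TRIzol and chloroform were used to extract RNA, and SMART-Seq v4 Ultra Low Input reagents were used to build the libraries. How old the mice were, and how much antibody they received and when, is not given in the sources used here. The other experiment of the series compared 3 mice without Il34 (KO) with 4 heterozygous mice (Het), separate animals whose controls keep 1 intact copy of the gene.

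IL-34 is a secreted protein made mainly by neurons in the forebrain, and it signals through CSF1R, the receptor it shares with the growth factor CSF1. Microglia, the resident macrophages of the brain, need signalling through CSF1R to survive, and they are the main cells of the brain that carry it. Type I interferons signal through a receptor on most cells to STAT proteins and IRF9, which together bind promoters that hold an interferon-stimulated response element and switch on genes of antiviral defence.

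Total counts ran from 15064391 to 43146087 with anti-IL34 and from 15487968 to 75158213 with anti-gp120. Mitochondrial transcripts took 4.67% to 5.68% of counts with anti-IL34 and 5.33% to 6.03% with anti-gp120. Levels are given as CPM, a gene's counts relative to all counts of its library, scaled by the TMM method of edgeR, always in the order of anti-gp120 animals 1, 7, 8 and 15 and anti-IL34 animals 2, 10, 11 and 24. Fold changes are log2 values of anti-IL34 over anti-gp120 with sex as a covariate, and a gene was called when its edgeR p, adjusted by Benjamini-Hochberg over all genes tested, was under 0.05.

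Microglia genes were lower and interferon-induced genes were higher in the forebrain of mice given anti-IL34. Of 17143 genes tested, 123 (0.717%) passed the threshold, 90 lower (0.525%) and 33 higher (0.192%). The shares lower and higher are the background for each forebrain count of edgeR-called list members below. The lower genes had a median log2 fold change of -1.16 and the higher genes one of 1.88, beside 0.00 over all genes tested. The steepest falls were those of Slc2a5 (-2.27), P2ry12 (-2.18) and P2ry13 (-2.08), and the steepest rises those of Oasl2 (2.95), Cxcl10 (2.55) and Ifit1 (2.37). The arms did not overlap for any of the 123 genes, but these were selected for small p in the same 8 libraries. Separated arms follow in part from that selection. Over all genes tested, 3.29% had arms that did not overlap. An unadjusted edgeR p under 0.05 was reached by 4.86% of the genes, and DESeq2 called 202 of 21796 genes with an adjusted p (0.927%). The number of called genes changed when single animals were omitted. From the treated arm, omitting animal 11 left 25 (22 lower, 3 higher) and omitting animal 24 left 73. Animal 11 was the only treated female. With the sex term, each fit without animal 11 estimates the antibody effect from 3 treated and 2 control males. From the control arm, omitting animal 7 left 41, animal 1 left 66 and animal 8 left 77. In each of the 8 fits that left out 1 animal, 25 of the 123 genes passed, 22 lower and 3 higher.

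**Figure D1:**
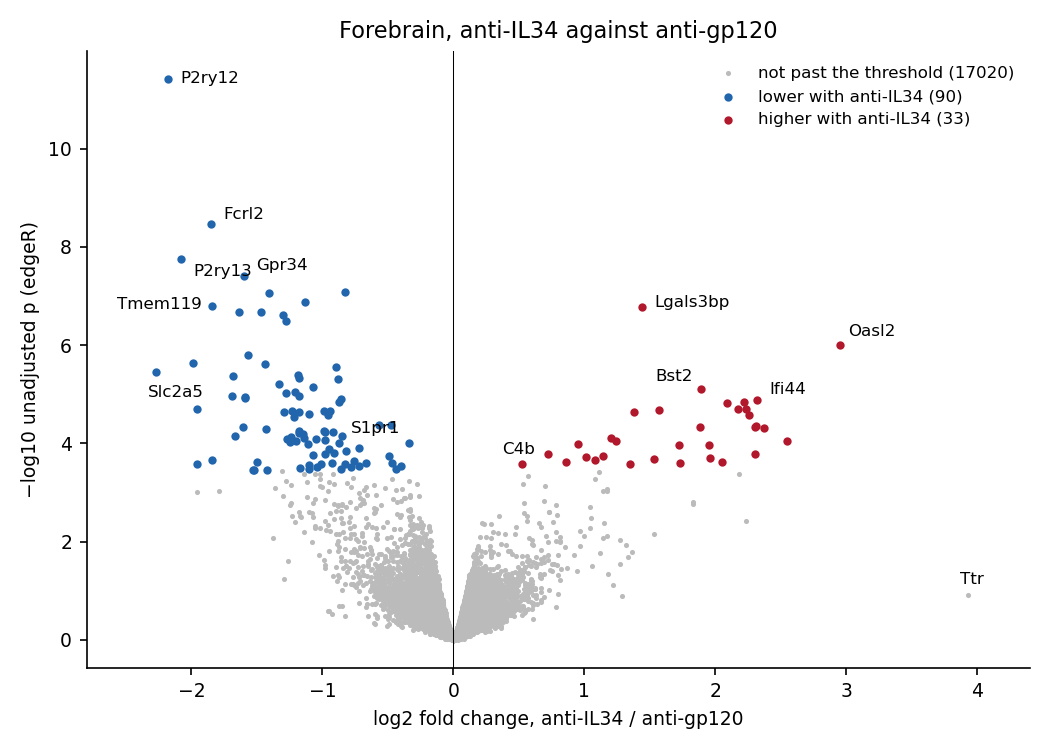
Each point is 1 of the 17143 genes, with the log2 fold change of anti-IL34 over anti-gp120 in forebrain on the x axis and the negative log10 of the unadjusted edgeR p on the y axis. The 90 lower genes (blue) hold the smallest p-values, led by P2ry12, and the 33 higher genes (red) reach 2.95 for Oasl2, while Ttr stands far right with a p that misses the threshold.

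RNA of the antibody's target was not lower. Il34 stood at 36.3, 38.9, 37.2 and 31.9 CPM with anti-gp120 and 37.5, 37.1, 41.2 and 36.7 CPM with anti-IL34. The arms overlapped, and the log2 fold change was 0.07 (SE 0.078, Benjamini-Hochberg adjusted edgeR p 0.999). Csf1, which encodes the other ligand of CSF1R, stood at 14.8, 14.3, 14.2 and 11.1 CPM with anti-gp120 and 18.4, 17.3, 12.5 and 22.5 CPM with anti-IL34. It was lowest in anti-gp120 animal 15 and the arms overlapped, with log2 fold change 0.27, SE 0.13, Benjamini-Hochberg adjusted edgeR p 0.999. Csf1r, the gene of their shared receptor, was at 89.6, 95.6, 96.8 and 65 CPM with anti-gp120 and 42, 33.1, 31.8 and 39.8 CPM with anti-IL34. All 4 anti-IL34 animals lay below all 4 controls, a level of 40.6% of control (log2 fold change -1.30, SE 0.12, Benjamini-Hochberg adjusted edgeR p 0.000355). In the CSF family list of 9 genes tested, 2 were lower, Csf1r and the granulocyte receptor gene Csf3r (-0.98), and 0 were higher, with a median of -0.21. Csf3r passed in 3 of the 8 fits with 1 animal left out, failing when treated animal 10, 11 or 24 or control animal 1 or 7 was omitted (highest Benjamini-Hochberg adjusted edgeR p 0.214). In whole tissue, fewer microglia and less of an RNA in each cell cannot be told apart, which holds for the lower forebrain levels that follow.

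Most surface receptors and transporters of homeostatic microglia fell: of 28 tested, 17 were lower and 0 higher, beside 0.525% and 0.192% of all genes. The median log2 fold change was -0.85, and all 28 estimates were negative. In 19 of the 28 every anti-IL34 animal lay below every control, beside 2.26% of all genes tested. P2ry12, a receptor for ADP that steers microglial processes towards injury, lies at chr3:59216272-59262871 on the minus strand (GENCODE M21, GRCm38). It stood at 55.5, 59.9, 55.8 and 53.1 CPM with anti-gp120 and 13.8, 12.1, 11.7 and 13 CPM with anti-IL34, a mean of 56.1 ± 2.81 and 12.6 ± 0.916 CPM (SD, n = 4 each). The anti-IL34 animals lay within a narrow band at 22.1% of control, far below every control animal (log2 fold change -2.18, SE 0.072, Benjamini-Hochberg adjusted edgeR p 6.46e-08). Fcrl2, known in older annotation as Fcrls and carried by microglia among brain cells, was at 27.9, 31, 38 and 27.2 CPM with anti-gp120 and 8.4, 8.38, 8.4 and 8.65 CPM with anti-IL34. It showed the same separation, at 27.8% of control (log2 fold change -1.85, SE 0.11, Benjamini-Hochberg adjusted edgeR p 2.87e-05). P2ry13, a related ADP receptor, was at 12, 12.5, 11.4 and 10.2 CPM with anti-gp120 and 3.87, 2.49, 2.16 and 3.17 CPM with anti-IL34, again with no overlap of the arms (log2 fold change -2.08, SE 0.15, Benjamini-Hochberg adjusted edgeR p 0.000102).

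Tmem119, a membrane protein used as a marker of microglia, stood at 11.6, 14.7, 14 and 9.34 CPM with anti-gp120 and 3.87, 4.26, 2.89 and 3.27 CPM with anti-IL34. The arms were well apart, and anti-gp120 animal 15 had the lowest control value (log2 fold change -1.84, SE 0.16, Benjamini-Hochberg adjusted edgeR p 0.000317). Cx3cr1, the receptor of the neuronal chemokine fractalkine, was at 58.5, 57.3, 59.4 and 46.2 CPM with anti-gp120 and 26.1, 18.1, 19.1 and 23.6 CPM with anti-IL34, once more lowest in animal 15 among the controls (log2 fold change -1.41, SE 0.12, Benjamini-Hochberg adjusted edgeR p 0.000248). Gpr34, a lysophosphatidylserine receptor, was at 14.6, 16.3, 15.6 and 15.1 CPM with anti-gp120 and 6.33, 4.71, 4.28 and 5.61 CPM with anti-IL34, with tight arms that did not overlap (log2 fold change -1.60, SE 0.12, Benjamini-Hochberg adjusted edgeR p 0.000166). Siglech, which encodes a sialic acid-binding receptor of the Siglec family, stood at 29.7, 28.7, 29.5 and 21.8 CPM with anti-gp120 and 12.5, 7.76, 8.19 and 8.6 CPM with anti-IL34, with animal 15 below the other controls and above all treated animals (log2 fold change -1.64, SE 0.15, Benjamini-Hochberg adjusted edgeR p 0.000326). Cd33, of the same family, fell by 1.28 on the log2 scale. Selplg, the ligand of P-selectin, fell by 1.57. Slc2a5, which encodes the fructose transporter GLUT5, stood at 3.01, 3.31, 4.07 and 2.23 CPM with anti-gp120 and 1.03, 0.494, 0.67 and 0.552 CPM with anti-IL34. It had the largest fall of all called genes (log2 fold change -2.27, SE 0.27, Benjamini-Hochberg adjusted edgeR p 0.00319) although its level was low, and anti-IL34 animal 2 was the highest of its arm. All of the genes named in this paragraph and P2ry12, P2ry13 and Fcrl2 passed in each of the 8 fits with 1 animal left out, and Slc2a5 had the largest adjusted edgeR p among them (0.0413, Benjamini-Hochberg, without anti-IL34 animal 11).

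**Figure D2:**
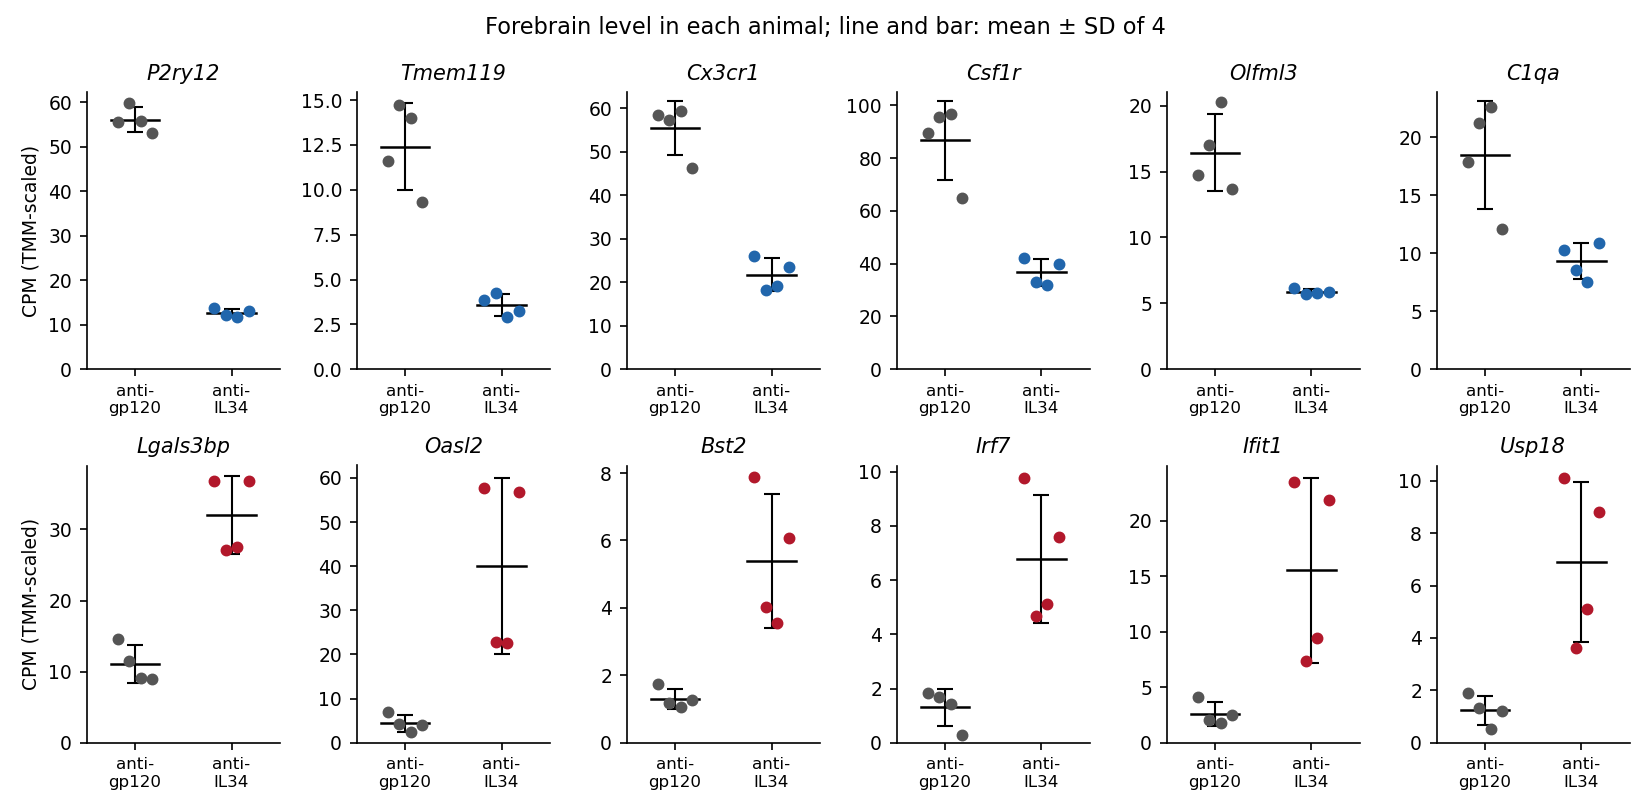
Each panel shows 1 gene, with TMM-scaled CPM in forebrain on the y axis, 1 point per animal (from left to right animals 1, 7, 8 and 15 with anti-gp120 and 2, 10, 11 and 24 with anti-IL34), and the mean ± SD of 4 animals as a line and bar. The upper 6 genes are lower in every anti-IL34 animal; in the lower 6 anti-IL34 animals 2 and 24 stand above animals 10 and 11, and all 4 stand above the controls.

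Other members of the surface list were called with less margin. The transforming growth factor beta receptor gene Tgfbr1 was at 71.7% of control (-0.48), and the integrin gene Itgb5 was at 63.0% (-0.67). Sting1, the adaptor of cytosolic DNA sensing, was lower (-1.24) while interferon-induced genes were higher. Tgfbr1 passed in 6, Sting1 in 3 and Itgb5 in 1 of the 8 fits with 1 animal left out (highest adjusted edgeR p 0.189, 0.176 and 0.23, Benjamini-Hochberg); each failed when treated animal 11 or control animal 1 was omitted. Sting1 and Itgb5 also failed when treated animal 10 or 24 or control animal 7 was omitted, and Itgb5 when treated animal 2 or control animal 8 was. P2ry6 (-0.78), a receptor for UDP, and Entpd1 (-0.39), the gene of CD39, which breaks down extracellular ATP, did not pass (Benjamini-Hochberg adjusted edgeR p 0.405 and 0.0932).

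Several of these genes lie within or across other genes, and the counts appear to cover whole gene spans. P2ry12 and P2ry13 lie inside Med12l on the other strand, and Gpr34 inside Cask. The level of Med12l differed by 0.06 on the log2 scale and that of Cask by -0.03. Estimates of the other hosts examined, for lower and higher genes, ran from -0.32 to 0.11. Cdh23, on the strand opposite Vsir, was at -0.32 (SE 0.24) and Nt5dc2, on the strand opposite Stab1, at -0.30 (SE 0.21). None of the hosts examined passed (Benjamini-Hochberg adjusted edgeR p 0.999 each). In all, 38 of the 90 lower and 10 of the 33 higher genes overlap another annotated gene.

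Secreted and lysosomal products of homeostatic microglia followed: of 16 tested, 9 were lower and 0 higher, beside 0.525% and 0.192% of all genes. The median was -0.90, with 16 negative estimates. Olfml3, a secreted glycoprotein of microglia, was at 14.7, 17, 20.3 and 13.7 CPM with anti-gp120 and 6.2, 5.69, 5.77 and 5.89 CPM with anti-IL34, with no overlap of the arms and a level at 36.2% of control (log2 fold change -1.47, SE 0.13, Benjamini-Hochberg adjusted edgeR p 0.000326). Ctss, the lysosomal protease cathepsin S, fell by 0.92 on the log2 scale and Crybb1, a crystallin gene that marks microglia, by 1.69. C1qa and C1qc, subunits of the first complement component, were lower (-1.05 and -1.25), and the third subunit gene C1qb had a similar estimate that missed the threshold (-0.92, Benjamini-Hochberg adjusted edgeR p 0.0562). Ctss passed in 6, Crybb1 in 7 and C1qa and C1qc in 5 each of the fits that left out 1 animal; all 4 failed without anti-IL34 animal 11 (adjusted edgeR p up to 0.214, Benjamini-Hochberg), Ctss, C1qa and C1qc also without anti-gp120 animal 7, C1qa without anti-IL34 animal 10 and C1qc without anti-IL34 animal 24. In the broader list of 33 lysosomal genes, 3 were lower, Ctss and Laptm5 (-1.44) among them, and the median was -0.11. Of the 33, 25 had negative estimates, 9 had every anti-IL34 animal below every control (2.26% of all genes tested) and 11 had an unadjusted edgeR p under 0.05 (4.86% of all genes). Lamp1 (-0.04), Psap (-0.01) and Ctsb (-0.01), lysosomal genes used by most cells of the brain, did not pass (Benjamini-Hochberg adjusted edgeR p 0.999 each).

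Of 24 genes of the lipid receptor TREM2, its adaptors and its downstream signalling, 9 were lower, beside 0.525% of all genes, and 0 higher. The median was -0.87, with 24 negative estimates. Trem2 itself stood at 6.08, 6.99, 7.09 and 4.4 CPM with anti-gp120 and 3.16, 2.87, 1.91 and 3.17 CPM with anti-IL34, with no overlap of the arms (log2 fold change -1.23, SE 0.18, Benjamini-Hochberg adjusted edgeR p 0.00843). Of its downstream genes, Inpp5d, which encodes the phosphatase SHIP1, fell by 0.90, Syk, the kinase recruited by its adaptor, by 0.86, Vav1 by 0.93 and Pik3cg by 1.21 on the log2 scale. Tyrobp, the adaptor gene, had an estimate of -1.06 and missed the threshold (Benjamini-Hochberg adjusted edgeR p 0.0565). Inpp5d, Pik3cg and Apbb1ip (-0.88) passed whichever animal was omitted; Trem2 failed without anti-IL34 animal 11 or anti-gp120 animal 7 (highest adjusted edgeR p 0.102, Benjamini-Hochberg), and Syk and Vav1 passed only without anti-IL34 animal 2 or anti-gp120 animal 15 (highest 0.356 and 0.347).

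Among lineage transcription factors, 2 of 21 were lower, Ikzf1 (-0.94) and Maf (-0.40), beside 0.525% of all genes. None was higher, and the median was -0.34. Spi1, which encodes PU.1, the factor that defines the macrophage lineage, had an estimate of -0.91 (SE 0.20) and Sall1, a factor specific to microglia among brain cells, one of -0.71 (SE 0.18); neither passed (Benjamini-Hochberg adjusted edgeR p 0.0813 and 0.16). Ikzf1 failed without anti-IL34 animal 11 or anti-gp120 animal 7, and Maf in all 8 fits with 1 animal left out (adjusted edgeR p up to 0.392, Benjamini-Hochberg). Toll-like receptor genes were represented by Tlr13, a sensor of bacterial ribosomal RNA, the 1 of 17 that was lower (-1.43), with 17 negative estimates and a median of -0.59. Tlr13 failed without anti-IL34 animal 11 or anti-gp120 animal 1 (highest adjusted edgeR p 0.151, Benjamini-Hochberg). Of 7 Fc receptor genes, Fcgr3 (-1.04) and Fcrl2 were lower. Fcgr3 passed only without anti-gp120 animals 8 or 15 among the fits with 1 animal left out (highest adjusted edgeR p 0.425, Benjamini-Hochberg). Of 24 disease-associated microglia genes, Trem2 alone was lower, and the median was -0.11; Apoe (-0.21), Lpl (-0.02) and Spp1 (0.19) did not pass. Of 15 border-associated macrophage genes, Stab1, a scavenger receptor gene, was lower (-0.96) and the mannose receptor gene Mrc1 was not called (-0.81, Benjamini-Hochberg adjusted edgeR p 0.0789). Stab1 failed without anti-IL34 animal 11 or anti-gp120 animal 7 (highest adjusted edgeR p 0.0524, Benjamini-Hochberg). Of 18 TGF-beta pathway genes Tgfbr1 alone was lower (median -0.06), of 13 purinergic genes P2ry12, P2ry13 and Gpr34 were (median -0.32), and of 17 microglial factors acting on neurons Cx3cr1 and C1qa were (median -0.07). Nlrp3, the inflammasome sensor gene and 1 of 17 genes of cytokines and the inflammasome, was lower (-1.42) and failed in all 8 fits with 1 animal left out (adjusted edgeR p up to 0.374, Benjamini-Hochberg).

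Further lower genes were grouped by known function after their values were seen. The synthesis of prostanoids and leukotrienes was represented by Ptgs1 (-0.86), which encodes cyclooxygenase 1, Hpgds (-1.19), the prostaglandin D synthase gene, Tbxas1 (-1.33), the thromboxane synthase gene, Ltc4s (-1.96), the leukotriene C4 synthase gene, and Hpgd (-0.87), whose product inactivates prostaglandins. Ltc4s was at 1.57, 1.69, 1.9 and 1.02 CPM with anti-gp120 and 0.581, 0.4, 0.361 and 0.322 CPM with anti-IL34, a low level with no overlap of the arms (log2 fold change -1.96, SE 0.28, Benjamini-Hochberg adjusted edgeR p 0.00843). Regulators of small GTPases and the actin skeleton of blood-lineage cells included Nckap1l (-1.18), Dock2 (-0.99), Cyth4 (-1.28), Arhgap45 (-1.11), Arhgap30 (-1.07) and Fgd2 (-0.95). Vsir, which encodes an immune checkpoint protein, was at 23.8, 28.5, 25.7 and 21.6 CPM with anti-gp120 and 12.3, 11.1, 11.2 and 12.1 CPM with anti-IL34, with both arms narrow (log2 fold change -1.13, SE 0.097, Benjamini-Hochberg adjusted edgeR p 0.000317). Other receptors of immune cells included Adgre1 (-1.07), which encodes the macrophage antigen F4/80, and Havcr2 (-1.18), which encodes TIM-3. Cd180 and Ly86, whose products form a complex on the cell surface, were both lower (-1.2 and -1.10). Mlxipl, which encodes a transcription factor that responds to carbohydrate, was lower (-1.15) as was the fructose transporter gene. Ltc4s, Havcr2, Arhgap45, Arhgap30, Fgd2, Cd180, Ly86 and Mlxipl passed in 2 to 6 of the 8 fits with 1 animal left out and failed, among others, without anti-gp120 animal 7. Of the genes of this paragraph, Hpgds, Tbxas1, Vsir and Adgre1 passed whichever animal was omitted; the others failed without anti-IL34 animal 11 (adjusted edgeR p from 0.0502 for Nckap1l to a highest value over the fits of 0.404 for Ly86, Benjamini-Hochberg).

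S1pr1, a receptor for sphingosine 1-phosphate with strong expression in astrocytes and endothelium, had the smallest fall of the 90. It stood at 129, 129, 121 and 113 CPM with anti-gp120 and 106, 97.4, 94.9 and 98.7 CPM with anti-IL34. The arms were close but did not overlap (log2 fold change -0.34, SE 0.058, Benjamini-Hochberg adjusted edgeR p 0.0217), and the call held in 2 of the 8 fits with 1 animal left out, those without anti-IL34 animal 2 or anti-gp120 animal 15 (highest adjusted edgeR p 0.189, Benjamini-Hochberg). In the Het animals its level in isolated microglia was 0.88 log2 units above forebrain, the lowest of the lower genes.

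Lower calls were most frequent among genes strongly enriched in microglia, measured as the log2 fold change of isolates over forebrain in the Het animals, which took no part in the antibody experiment. Among 187 genes 5 to 6 log2 units higher in Het isolates than in Het forebrain, 47 (25.1%) were lower with anti-IL34, and the median log2 fold change was -0.67. Among 81 genes enriched by 6 to 7 log2 units, 29 (35.8%) were lower, with a median of -0.85. Of the 24 genes enriched by 7 or more, 1 was lower and the median was -0.46. Of 4237 genes enriched by 0 to 1 log2 units, 1 was lower, S1pr1. The 90 lower genes had a median enrichment of 5.73 log2 units (range 0.88 to 7.48). Of all 292 genes enriched by at least 5, 77 (26.4%) were lower, 3 were higher, and 237 had a negative estimate. The higher genes had a median enrichment of 2.94 (range 0.86 to 7.49).

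**Figure D3:**
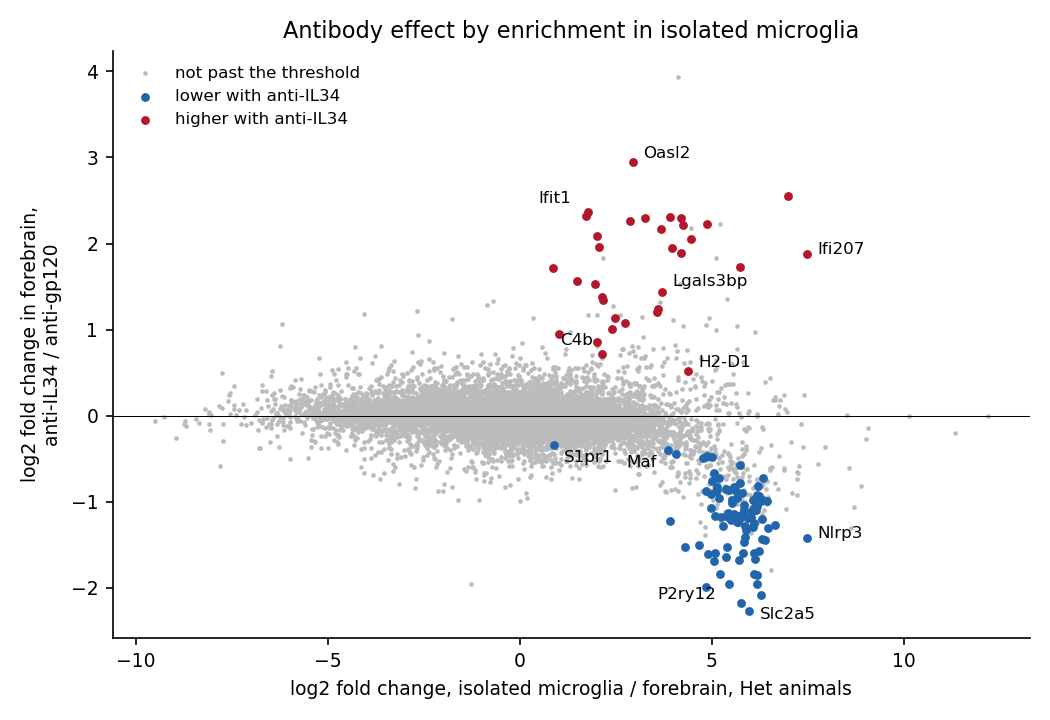
Each point is a gene, with the log2 fold change of isolated microglia over forebrain in the Het animals on the x axis and the log2 fold change of anti-IL34 over anti-gp120 in forebrain on the y axis. Lower genes (blue) crowd between 4 and 7 on the x axis, with S1pr1 at 0.88, Maf at 3.86, 2610203C22Rik at 3.91 and Nlrp3 at 7.48 outside, and higher genes (red) spread from 0.86 to 7.49.

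Promoters of the lower genes were searched for the core motif AGGAAGT, the core of the sequence bound by PU.1, on both strands. RefSeq promoter sequences (GRCm38.p6, 250 bases before to 50 after the start of transcription) were found for 68 of the 90 genes, and 25 (36.8%) held the motif, beside 9.94% of the 12020 genes tested with a promoter and 10.7% of all 27025 genes of the table. Shown are the promoters of P2ry12 and of 8030442B05Rik, an unnamed transcript, which are the lower genes of smallest p with the motif, written 5′ to 3′ on the gene's strand with the motif in capitals. The P2ry12 window lies at chr3:59262936-59263235 on the minus strand, and that of 8030442B05Rik at chr2:11398451-11398750 on the minus strand, where the motif reads ACTTCCT because it is on the opposite strand.
P2ry12: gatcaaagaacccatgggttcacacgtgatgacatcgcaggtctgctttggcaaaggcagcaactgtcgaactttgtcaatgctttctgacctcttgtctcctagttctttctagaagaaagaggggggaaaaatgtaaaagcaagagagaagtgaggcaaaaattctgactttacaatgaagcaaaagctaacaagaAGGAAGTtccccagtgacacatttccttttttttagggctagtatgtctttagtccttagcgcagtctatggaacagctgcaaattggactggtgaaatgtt
8030442B05Rik: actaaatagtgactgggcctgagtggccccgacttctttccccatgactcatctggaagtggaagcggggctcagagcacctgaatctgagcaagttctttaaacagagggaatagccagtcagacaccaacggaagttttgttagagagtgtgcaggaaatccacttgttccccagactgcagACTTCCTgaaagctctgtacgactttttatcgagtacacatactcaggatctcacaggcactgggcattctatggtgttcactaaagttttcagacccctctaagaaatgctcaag
The motif starts 52 bases before the RefSeq start of P2ry12 and 66 bases before that of 8030442B05Rik. The P2ry12 window lies wholly outside the GENCODE span given above, so RefSeq and GENCODE place its start differently. A match of these letters describes the sequence and does not show binding. 8030442B05Rik stood at 2.02, 2.56, 2.95 and 2.29 CPM with anti-gp120 and 0.517, 0.706, 0.618 and 0.46 CPM with anti-IL34, and no anti-IL34 animal reached the lowest control (log2 fold change -1.99, SE 0.23, Benjamini-Hochberg adjusted edgeR p 0.00242).

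The lower genes had negative estimates, with 1 exception, in isolates of the same animals and in the deletion experiment, which used other animals. Of the 90 lower genes, 89 had a negative estimate in anti-IL34 microglia, with a median log2 fold change of -0.96, 27 were called lower there by edgeR, beside 0.603% of the 17570 genes tested (0 to 87 when 1 animal was left out, 0 without anti-IL34 animal 2 or 10 or control animal 7, 60 without anti-IL34 animal 11 and 87 without control animal 15, with 89 negative in each fit), and 76 by DESeq2, beside 7.94% of genes with that tool. In 63 of the 90 the arms did not overlap with anti-IL34 below, beside 10.7% of genes. The exception was S1pr1 in isolates, at 0.43. P2ry12 in isolates fell from 1677 ± 180 to 430 ± 115 CPM (SD, n = 4 each; Benjamini-Hochberg adjusted edgeR p 0.0188), a call held in 2 of the 8 fits with 1 animal left out, those without anti-IL34 animal 11 or control animal 15 (highest adjusted edgeR p 0.169, Benjamini-Hochberg).

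In the same isolates estimates for markers of neurons, astrocytes, oligodendrocytes and the choroid plexus were positive and did not pass the test. Every estimate was positive for 16 excitatory neuron genes (median 0.85), 16 inhibitory neuron genes (0.81), 16 astrocyte genes (0.69), 19 oligodendrocyte genes (0.66), 13 choroid plexus and ependymal genes (1.89) and 12 transcripts of the mitochondrial genome (0.76). None of these genes was called by edgeR, and 7, 5, 0, 1, 8 and 0 of them, in the same order, had an unadjusted p under 0.05, beside 25.9% of all genes. Of 22 vessel genes 18 were positive (median 0.15), of 11 fibroblast genes all 11 (0.42), of 19 neutrophil and monocyte genes 17 (0.79), of 8 lymphocyte genes 4 (0.02), of 9 dendritic cell genes 3 (-0.22) and of 4 erythroid genes 3 (0.11). All listed neuron, astrocyte, oligodendrocyte and choroid plexus genes were detected in the isolates. The summed excitatory neuron genes ran from 995 to 3497 CPM with anti-gp120 and from 2788 to 4311 CPM with anti-IL34. Inhibitory neuron genes summed to 73.4 to 160 and 132 to 230 CPM, astrocyte genes to 5134 to 19529 and 11158 to 20680 CPM, and oligodendrocyte genes to 4260 to 10589 and 6687 to 14274 CPM, in the same order of arms. Mitochondrial transcripts summed to 41665 to 129487 CPM with anti-gp120 and to 79984 to 122709 CPM with anti-IL34. The highest control in each of these sums was animal 15, whose isolate overlapped the anti-IL34 arm. P2ry12 there was at 1741 CPM, beside 353 to 600 CPM with anti-IL34. That isolate had the lowest control median for homeostatic surface genes, a log2 ratio to the control mean of -0.23. The other controls were at -0.04 to 0.19 and the anti-IL34 animals at -1.32 to -0.70. For the secreted genes it was at -0.34, beside -0.07 to 0.20 in the other controls and -1.18 to -0.62 with anti-IL34. The choroid plexus sum ran from 124 to 234 CPM with anti-gp120 and was 206, 3298, 941 and 335 CPM in anti-IL34 animals 2, 10, 11 and 24. The part of other cells in the isolate results, lower and higher, was not tested.

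In KO forebrain all 90 estimates were negative with a median of -1.01, 62 were called lower by edgeR, beside 0.615% of 19343 genes tested, and 73 by DESeq2, beside 0.895%. In 83 of the 90 every KO animal lay below every Het animal, beside 5.14% of genes. P2ry12 there fell from 34.9 ± 1.74 CPM (SD, n = 4) in Het to 9.54 ± 1.27 CPM (SD, n = 3) in KO. Oligodendrocyte markers were lower there as well: 7 of 19 were called by edgeR, beside the 0.615% of all genes, and 9 by DESeq2, with 18 negative estimates and a median of -0.28. Among them were the myelin genes Mbp (-0.37), Mog (-0.41), Mobp (-0.33), Cnp (-0.30), Cldn11 (-0.32) and Mal (-0.45). The list summed to 6338 to 7549 CPM in Het and to 5245 to 5625 CPM in KO, and the count of 7 was 0 without KO animal 3, 4 without KO animal 6 or 24 or Het animal 21, and 5 to 8 without the other Het animals. With the antibody 0 of the 19 were called and the sums of the arms overlapped, from 6016 to 6279 CPM with anti-gp120 and from 4614 to 7091 CPM with anti-IL34. The difference between antibody and deletion was called for 0 of the 19 by edgeR, with 6 at an unadjusted p under 0.05, beside 3.07% of all genes. In the other marker lists the 1 member called with the deletion was Siglech, and the part of oligodendrocytes in the deletion result was not tested. The difference between antibody and deletion in forebrain, tested over all 15 forebrain libraries, was called for 0 of the 90 by edgeR (17 at an unadjusted p under 0.05, beside 3.07% of all genes) and for 0 by DESeq2. The difference between tissues was called for 0 of the 90 by edgeR (10 at an unadjusted p under 0.05, beside 21.1% of all genes) and for 4 by DESeq2, beside 7.39% of genes tested with that tool.

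Over all genes edgeR made 110 calls in anti-IL34 microglia, and that number depended on single animals. Omitting treated animal 10 or control animal 7 left 0 (2701 and 2882 genes at an unadjusted edgeR p under 0.05), treated animal 2 left 1, treated animal 24 left 6 and control animal 1 or 8 left 4. Omitting treated animal 11 gave 514 and control animal 15 gave 6905. The tissue difference was called for 17 of 18399 genes (0.0924%). It was called for 0 when each animal's pair of libraries was fitted as a replicate block (4232 genes at an unadjusted edgeR p under 0.05). Omitting treated animal 10 or control animal 1, 7 or 8 also left 0, treated animal 24 left 2 and treated animal 2 left 6, whereas omitting treated animal 11 gave 139 and control animal 15 gave 5565. The 120 calls of the deletion became 55 without KO animal 3 and 72 without KO animal 6.

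The 33 higher genes were led by targets of type I interferon, and 32 of them belong to at least 1 of the lists used here. Of the 17020 genes not called, 539 do. The lists were written with earlier results of these data known, so membership gives no independent support. Of the signalling genes, Irf7, which drives the amplification of interferon production, was at 1.82, 1.67, 1.44 and 0.301 CPM with anti-gp120 and 9.75, 4.66, 5.1 and 7.59 CPM with anti-IL34. All anti-IL34 animals lay above all controls, with animals 2 and 24 at the top (log2 fold change 2.17, SE 0.31, Benjamini-Hochberg adjusted edgeR p 0.00843). Its span overlaps Phrf1 on the other strand, which differed by -0.04 on the log2 scale. Usp18, which removes ISG15 from proteins and dampens signalling at the receptor, was at 1.88, 1.34, 0.525 and 1.21 CPM with anti-gp120 and 10.1, 3.62, 5.1 and 8.79 CPM with anti-IL34 (log2 fold change 2.26, SE 0.33, Benjamini-Hochberg adjusted edgeR p 0.00893). Irf9, a DNA-binding partner of STAT proteins, rose by 0.86. In the list of 17 receptors, STATs and IRFs, 4 were higher, Irf7, Usp18 and Irf9 among them, and 0 lower, and the median was 0.04. Receptor and kinase genes did not pass: Ifnar1 (0.03), Ifnar2 (0.02), Jak1 (0.04) and Tyk2 (0.02) each had a Benjamini-Hochberg adjusted edgeR p of 0.999. Stat2 (0.54) did not pass either (Benjamini-Hochberg adjusted edgeR p 0.212).

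Of 23 sensors of foreign RNA and DNA, 8 were higher, beside 0.192% of all genes, and 1, Sting1, was lower. The median was 1.08. Oasl2, a member of the oligoadenylate synthetase family at chr5:114896936-114912234 on the plus strand, stood at 6.91, 4.29, 2.36 and 4.1 CPM with anti-gp120 and 57.7, 22.9, 22.6 and 56.8 CPM with anti-IL34, a mean of 4.42 ± 1.88 and 40 ± 19.9 CPM (SD, n = 4 each). The lowest treated value, 22.6 CPM, lay well above the highest control, 6.91 CPM, and animals 2 and 24 stood above animals 10 and 11 (log2 fold change 2.95, SE 0.31, Benjamini-Hochberg adjusted edgeR p 0.00121). Ddx60, a helicase that promotes sensing of viral RNA, was at 3.53, 3.03, 1.38 and 1.33 CPM with anti-gp120 and 17.2, 6.4, 9.79 and 16.6 CPM with anti-IL34, with animals 2 and 24 again highest (log2 fold change 2.22, SE 0.31, Benjamini-Hochberg adjusted edgeR p 0.00683). Oas2, which makes the second messenger that activates RNase L, was at 1.48, 0.929, 0.262 and 0.844 CPM with anti-gp120 and 7.23, 3.29, 3.86 and 5.11 CPM with anti-IL34 (log2 fold change 2.23, SE 0.32, Benjamini-Hochberg adjusted edgeR p 0.00843). Oas1b, of the same family, was at 1.36, 0.929, 0.656 and 0.784 CPM with anti-gp120 and 7.68, 3.29, 2.47 and 5.34 CPM with anti-IL34 (log2 fold change 2.09, SE 0.29, Benjamini-Hochberg adjusted edgeR p 0.00696). Both were highest in animals 2 and 24 and had no overlap of the arms. Ifih1 (1.08), which encodes the RNA sensor MDA5, Eif2ak2 (1.01), the gene of the kinase PKR, and the DNA-binding family members Ifi207 (1.88) and Ifi204 (1.73) were also higher. Rigi, the gene of the RNA sensor RIG-I, had an estimate of 1.08 that missed the threshold (Benjamini-Hochberg adjusted edgeR p 0.0691), and Cgas (-0.02) did not pass.

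Antiviral effectors had 14 of 51 genes higher, beside 0.192% of all genes, and 0 lower, with a median of 0.58 and 47 positive estimates. In 22 of the 51 the arms did not overlap, with anti-IL34 above (1.03% of all genes tested). Lgals3bp, a secreted glycoprotein that binds galectins, encoded at chr11:118392751-118402092 on the minus strand, stood at 14.6, 11.5, 9.05 and 8.98 CPM with anti-gp120 and 36.8, 27.1, 27.6 and 36.8 CPM with anti-IL34, a mean of 11 ± 2.65 and 32.1 ± 5.47 CPM (SD, n = 4 each). The arms were apart and each was tight, and its p was the smallest of the higher genes (log2 fold change 1.44, SE 0.13, Benjamini-Hochberg adjusted edgeR p 0.000317). Bst2, which encodes tetherin and holds budding viruses at the cell surface, was at 1.73, 1.19, 1.05 and 1.27 CPM with anti-gp120 and 7.88, 4.02, 3.56 and 6.07 CPM with anti-IL34, with all treated animals above all controls (log2 fold change 1.89, SE 0.24, Benjamini-Hochberg adjusted edgeR p 0.00524). Ifi44 was at 2.54, 1.39, 1.38 and 1.09 CPM with anti-gp120 and 12.6, 4.89, 6.8 and 12 CPM with anti-IL34, highest in animals 2 and 24 and, among controls, in animal 1 (log2 fold change 2.32, SE 0.32, Benjamini-Hochberg adjusted edgeR p 0.00671). Ifit1, which binds viral RNA lacking a proper cap, was at 4.16, 2.04, 1.77 and 2.53 CPM with anti-gp120 and 23.5, 7.34, 9.48 and 21.9 CPM with anti-IL34 (log2 fold change 2.37, SE 0.37, Benjamini-Hochberg adjusted edgeR p 0.0147). Rsad2, which encodes viperin, was at 2, 1.15, 1.18 and 1.15 CPM with anti-gp120 and 12.9, 3.76, 5.2 and 8.79 CPM with anti-IL34 (log2 fold change 2.31, SE 0.36, Benjamini-Hochberg adjusted edgeR p 0.0137). The controls of both genes were highest in animal 1. Ifit3 (1.96), Ifit3b (1.72), Mx1 (1.95), Mx2 (1.35), Ifitm3 (1.24), Xaf1 (1.53), Samd9l (0.95), Slfn9 (1.14) and Phf11d (2.30) completed the called members. Ifit3 and Ifit3b, the Oas1 genes, Mx1 and Mx2, and the Ifi200 genes have close paralogs that can share reads, so the split between them is uncertain. Members that did not pass included Ifit2 (0.73), Ifi27 (0.70) and Trim30a (0.02), with Benjamini-Hochberg adjusted edgeR p of 0.204, 0.0866 and 0.999.

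Of the ISG15 and PARP conjugation systems, 3 of 15 genes were higher, beside 0.192% of all genes, with 15 positive estimates and a median of 0.56. Isg15, a ubiquitin-like protein attached to others during the interferon response, stood at 1.07, 0.595, 0.591 and 0.603 CPM with anti-gp120 and 6.78, 2.16, 3.04 and 3.96 CPM with anti-IL34. Anti-gp120 animal 1 was the highest control, and the lowest treated animal was above it (log2 fold change 2.30, SE 0.36, Benjamini-Hochberg adjusted edgeR p 0.0143). Rnf213, a large ubiquitin ligase gene, rose by 1.2 and Usp18 by 2.26. Interferon-induced GTPases had 1 of 11 listed genes higher by edgeR and 4 by DESeq2 (0.28% of genes that tool tested), with a median of 0.92 and 8 at an unadjusted edgeR p under 0.05 (4.86% of all genes). The edgeR call was Gbp3, a guanylate-binding protein gene, at 8.57, 7.28, 4.2 and 6.33 CPM with anti-gp120 and 24.3, 13.2, 14.3 and 24.2 CPM with anti-IL34, with all treated animals above the controls (log2 fold change 1.38, SE 0.20, Benjamini-Hochberg adjusted edgeR p 0.00843). Iigp1c, outside that list, rose by 2.05. In the class I antigen presentation list all 21 estimates were positive with a median of 0.39, and 1 gene passed, H2-D1 (0.52), a class I heavy chain gene. DESeq2 called 5 of the 21 higher, and 10 had an unadjusted edgeR p under 0.05. By the same measures DESeq2 called 12 of the 23 sensors, 17 of the 51 effectors and 6 of the 15 conjugation genes higher, and 18, 28 and 10 of them had an unadjusted edgeR p under 0.05. H2-K1 (0.65), B2m (0.39) and Tap1 (1.04) did not pass (Benjamini-Hochberg adjusted edgeR p 0.294, 0.405 and 0.171). Class II genes had 0 of 13 called by edgeR, and 0 by DESeq2, while 2 had an unadjusted edgeR p under 0.05. Cxcl10, a chemokine that attracts activated T cells, stood at 0.687, 0.502, 0.131 and 0.0603 CPM with anti-gp120 and 5.04, 1.46, 1.49 and 3.04 CPM with anti-IL34. It was the 1 of 8 chemokine genes that rose (log2 fold change 2.55, SE 0.43, Benjamini-Hochberg adjusted edgeR p 0.0205), at under 1 CPM in all controls. C4b, which encodes complement component 4, was at 17.3, 16.4, 15.7 and 15 CPM with anti-gp120 and 29.1, 24.2, 21.5 and 36.7 CPM with anti-IL34, with no overlap of the arms (log2 fold change 0.72, SE 0.13, Benjamini-Hochberg adjusted edgeR p 0.032). It was higher while C1qa and C1qc were lower, and its reads can be shared with the close paralog C4a.

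Promoters of the higher genes were searched for the core of the interferon-stimulated response element, spelled GAAA, any 2 bases and GAAA again, on both strands. Promoters were found for 24 of the 33 genes, and 14 (58.3%) held the motif, beside 3.62% of the 12020 genes tested with a promoter and 3.99% of all genes of the table. Of the 68 lower genes with a promoter, 3 (4.41%) held it, and 3 of the 24 higher genes (12.5%) held the PU.1 core. That core was not limited to the lower genes: of the listed interferon genes tested with a promoter, called or not, 6 of 15 sensors (40%) and 14 of 43 effectors (32.6%) held it, shares close to the 36.8% of the lower genes. Among receptors, STATs and IRFs, 2 of 15 (13.3%) held the PU.1 core, nearer the 9.94% of all genes tested with a promoter. The promoters of Bst2 and Ddx60, the higher genes of smallest p with the motif, each hold a pair of copies, shown in capitals. The Bst2 window lies at chr8:71537423-71537722 on the minus strand and that of Ddx60 at chr8:61927837-61928136 on the plus strand.
Bst2: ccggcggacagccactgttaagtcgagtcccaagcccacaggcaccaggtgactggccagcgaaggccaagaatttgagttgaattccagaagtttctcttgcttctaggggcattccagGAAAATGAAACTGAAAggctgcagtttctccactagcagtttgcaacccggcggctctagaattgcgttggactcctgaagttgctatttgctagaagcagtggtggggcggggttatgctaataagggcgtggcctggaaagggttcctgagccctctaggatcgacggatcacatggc
Ddx60: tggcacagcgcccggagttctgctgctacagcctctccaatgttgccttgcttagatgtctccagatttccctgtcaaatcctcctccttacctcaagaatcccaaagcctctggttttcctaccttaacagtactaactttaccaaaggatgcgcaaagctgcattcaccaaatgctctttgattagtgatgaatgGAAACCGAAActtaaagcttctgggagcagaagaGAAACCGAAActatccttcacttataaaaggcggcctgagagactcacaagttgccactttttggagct
In Bst2 the 2 matches overlap and start 130 and 124 bases before the start of transcription. In Ddx60 the 2 matches are separate and start 53 and 19 bases before it. A window without the letters, as for Ifi44, says only that this stretch lacks them.

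The rise differed between the animals of the anti-IL34 arm. Animals 2 and 24 were the highest pair in 33 of the 33 higher genes, animal 2 was the highest in 30, and animal 10 was the lowest in 28. The median ratio to the arm's mean was 1.41 in animal 2, 1.18 in animal 24, 0.753 in animal 11 and 0.633 in animal 10. Among the controls, animal 1 was the highest in 30 of the 33. Among the 90 lower genes the highest anti-IL34 level was likewise mostly in animal 2 (52 genes) or 24 (26 genes) and the lowest in animal 11 (40 genes) or 10 (28 genes). Their spread was smaller, with median ratios to the arm's mean of 1.08 in animal 2, 1.07 in animal 24, 0.926 in animal 10 and 0.896 in animal 11. Over the 51 effectors, the median log2 ratio to the control mean, computed after adding 0.5 CPM, was 0.99 in animal 2, 0.82 in animal 24, 0.27 in animal 11 and 0.17 in animal 10, beside 0.21 in control animal 1 and -0.15 to -0.04 in the other controls. By this measure animal 10 did not exceed control animal 1. In isolated microglia it was 1.22 in animal 2, 1.06 in animal 24, 0.97 in animal 11 and 0.12 in animal 10, with control animal 1 at 0.60 above the other controls. For the homeostatic surface genes in forebrain the median was -0.61, -0.79, -0.93 and -0.80 in animals 2, 10, 11 and 24, and -0.27 to 0.13 in the controls. Animals 10 and 11 also had the lowest mitochondrial shares, 4.76% and 4.67% of counts, beside 5.57% and 5.68% in animals 24 and 2, and the part of RNA quality in the result was not tested.

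**Figure D4:**
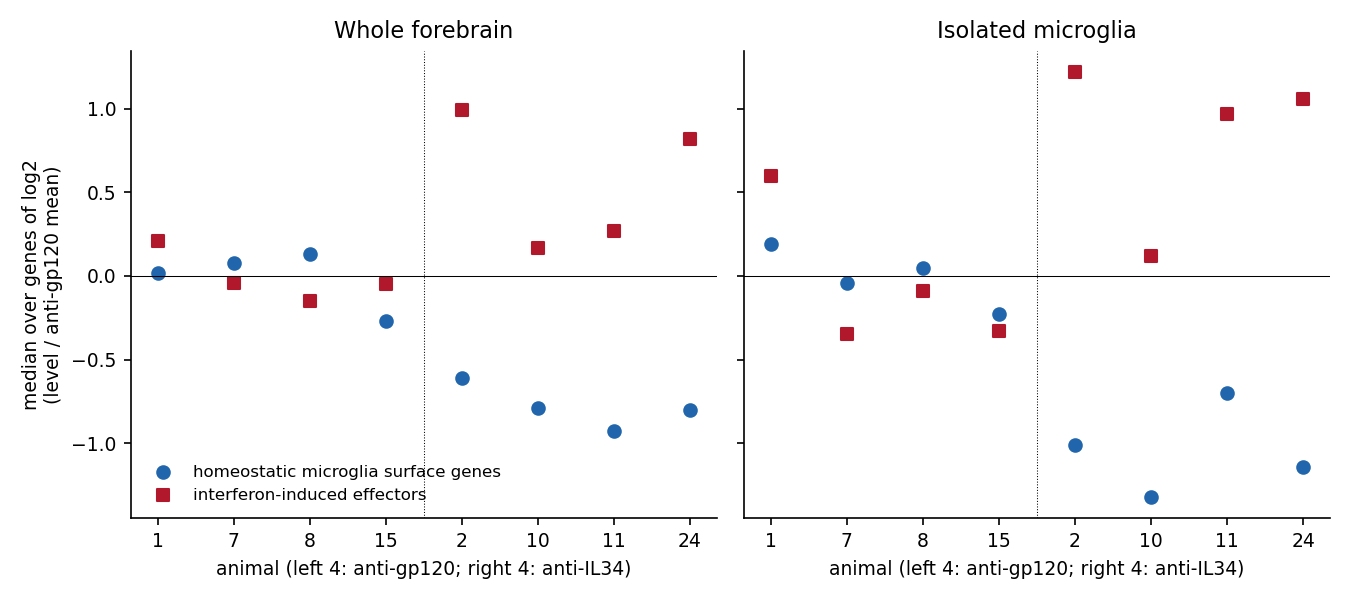
For each animal, the median over genes of the log2 ratio of its level to the anti-gp120 mean is plotted for homeostatic surface genes (circles) and interferon-induced effectors (squares), in forebrain (left) and in isolated microglia (right). In forebrain the effectors reach 0.99 and 0.82 in anti-IL34 animals 2 and 24 but 0.17 and 0.27 in animals 10 and 11, while surface genes are below all controls in all 4.

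Most interferon calls were lost in at least 1 of the fits that left out an animal. Lgals3bp, Oasl2 and Bst2 passed in each of the 8 fits with 1 animal left out. Of the 33 higher genes, 30 no longer passed when treated animal 11, the female of its arm, was omitted, 16 when treated animal 24 was and 8 when treated animal 2 was. Without animal 11 the control females do not inform the antibody effect, and estimates are close to those in males only (Bst2 1.99 in both). The part of animal 11 itself in those lost calls cannot be told apart from this smaller comparison. Omitting a control cost 27 calls for animal 7, 19 for animal 8, 16 for animal 1 and 7 for animal 15. Without anti-IL34 animal 10 none of the 33 was lost and 57 genes were higher. Without animal 11 the Benjamini-Hochberg adjusted edgeR p was 0.0851 for Ifi44 and 0.0939 for Ddx60, with log2 fold changes of 2.27 and 2.00. With all animals these log2 fold changes were 2.32 and 2.22. Irf9, Cxcl10, C4b and H2-D1 passed in 2, 3, 3 and 1 of the 8 fits. In none of the 8 fits did any of the 123 genes change direction.

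RNA of interferons themselves was scarce. Of 15 interferon and related cytokine genes looked for, 12 had 0 counts in all 8 forebrain libraries, and the 15 summed to 13 counts with anti-gp120 and 4 with anti-IL34. Ifnb1, which encodes interferon beta, had 0 counts in forebrain, so any difference was not detectable at this depth. In the isolates it had 24, 7, 6 and 12 counts in anti-gp120 animals 1, 7, 8 and 15, or 0.475, 0.414, 0.371 and 0.301 CPM of the library's whole total. In anti-IL34 animals 2, 10, 11 and 24 it had 33, 48, 51 and 25 counts, or 1.59, 1.03, 1.03 and 1.43 CPM. The arms did not overlap, and the gene was called higher (log2 fold change 1.6, SE 0.26, Benjamini-Hochberg adjusted edgeR p 0.0485), but in only 1 of the 8 fits with 1 animal left out, that without control animal 15 (highest adjusted edgeR p 0.225, Benjamini-Hochberg).

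The higher genes had positive estimates in the isolates and mostly negative ones in the deletion experiment. In anti-IL34 microglia all 33 had positive estimates with a median of 1.55 and 15 had arms that did not overlap with anti-IL34 above (4.78% of all genes tested), but 0 were called by edgeR, beside 0.0228% of all genes called higher (31 at an unadjusted p under 0.05, beside 25.9%) and 30 by DESeq2, beside 2.74% of genes that tool called higher. Oasl2 in isolates stood at 30.6 ± 28.0 CPM with anti-gp120 and 150 ± 66.2 CPM with anti-IL34 (SD, n = 4 each), and the arms overlapped, with control animal 1 at 72.5 CPM and anti-IL34 animal 10 at 63.9 CPM. The difference between tissues was called for 0 of the 33 with either edgeR or DESeq2, and 1 had an unadjusted edgeR p under 0.05. In KO forebrain 32 of the 33 were tested, 24 estimates were negative and 8 positive, the median was -0.21, and 0 were called higher or lower by edgeR, beside 0.00517% of all genes called higher (5 at an unadjusted p under 0.05, beside 7.45%). DESeq2 also called 0, beside 0.0214% called higher. These 33 genes were selected as higher in the antibody libraries that form 1 side of the difference between antibody and deletion. Positive signs and small p in that difference follow in part from this selection. The antibody's effect less the deletion's was positive for all 33, with a median of 1.90. It was called for Lgals3bp alone by edgeR (1.76, SE 0.22, Benjamini-Hochberg adjusted edgeR p 0.00372), although 32 had an unadjusted p under 0.05, and DESeq2 called it for 22 of the 33, beside 0.117% of genes tested with that tool. Over all 19724 genes edgeR called 2 (0.0101%), the other being Il34 (1.58, SE 0.13, Benjamini-Hochberg adjusted edgeR p 2.45e-05), whose RNA was called lower with the deletion (-1.50) and not with the antibody. That count of 2 became 33 when treated animal 10 was omitted and 5 when treated animal 11 was. The controls of the experiments differ, wild type with anti-gp120 in one and Het in the other, so genotype of the controls, experiment and antibody cannot be told apart in this difference.

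**Figure D5:**
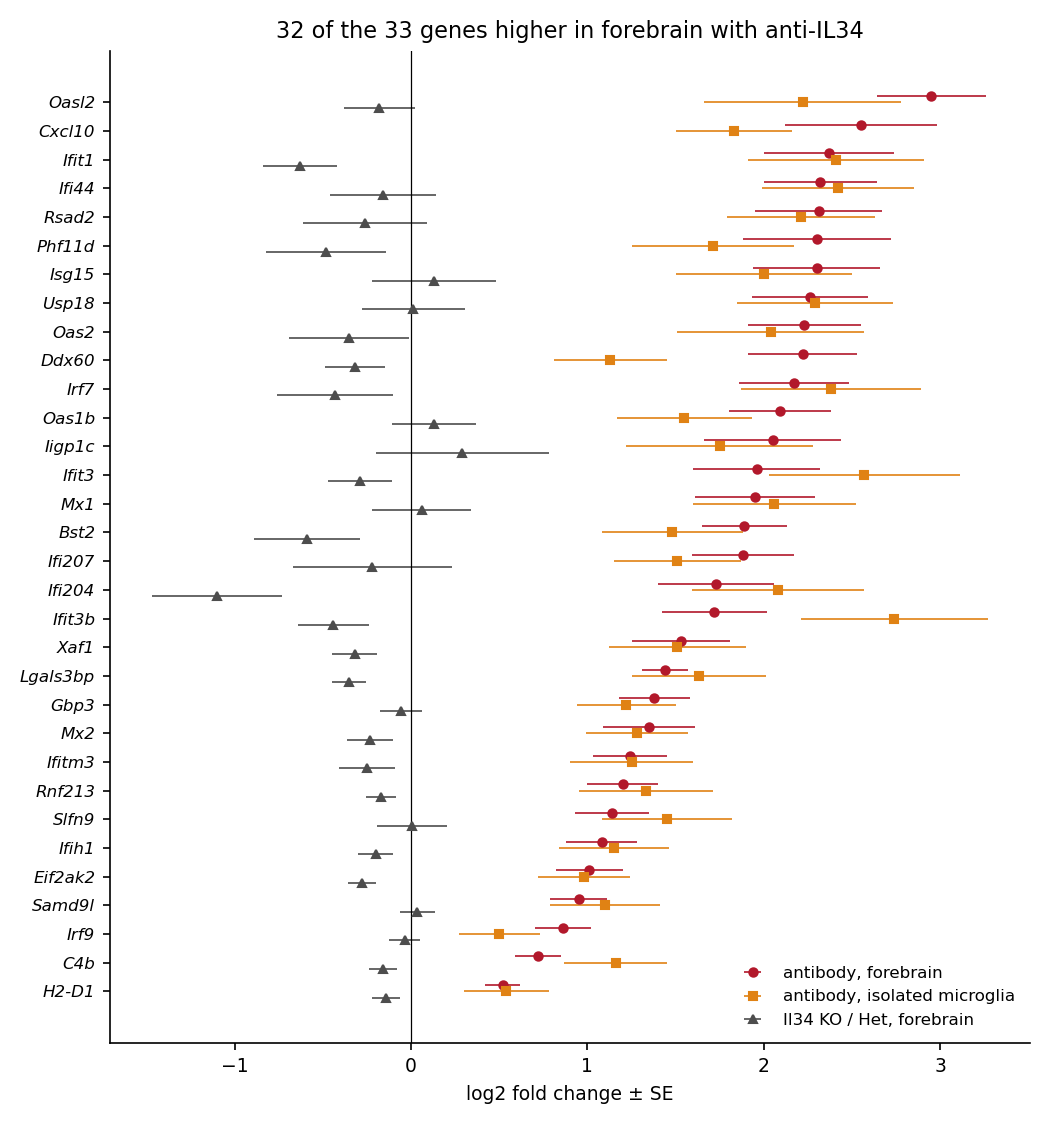
Of the 33 higher genes, 32 are listed by their log2 fold change in forebrain (circles), with that in isolated microglia of the same animals (squares) and that of KO over Het forebrain (triangles; Cxcl10 was not tested there), each ± SE. Circles and squares are all above 0, with wider bars for most genes in the isolates, and most triangles lie at or below 0.

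In the marker lists used for other cell types, the called members were Siglech and Bst2, both listed for dendritic cells. The 16 lists with 0 members called by edgeR, for neurons, astrocytes, oligodendrocytes, vessels, choroid plexus, fibroblasts, blood cells, class II presentation and general cell states, held 240 genes in all, of which 17 had an unadjusted edgeR p under 0.05, and DESeq2 called 0 in each. These 17 were unevenly spread: 5 of 16 astrocyte genes, 3 of 12 transcripts of the mitochondrial genome and 2 of 4 erythroid genes, against 0 in both neuron lists and in the oligodendrocyte list, beside 4.86% of all genes tested. Of the astrocyte estimates 15 of 16 were negative, and of the mitochondrial ones 11 of 12, with a median of -0.16. The medians were 0.04 for 16 excitatory neuron genes, -0.06 for 16 inhibitory neuron genes, -0.13 for 16 astrocyte genes and -0.06 for 19 oligodendrocyte genes. The astrocyte sum ran from 8216 to 9143 CPM with anti-gp120 and from 7164 to 8482 CPM with anti-IL34. Gfap, which rises in reactive astrocytes, had an estimate of 0.20 (Benjamini-Hochberg adjusted edgeR p 0.445). Neutrophil and monocyte genes had a median of 0.00 (8 tested) and lymphocyte genes one of -0.10 (6 tested). All 4 erythroid genes tested had negative estimates that did not pass, with a median of -0.70, and their sum ran from 17.0 to 45.7 CPM with anti-gp120 and from 7.96 to 30.7 CPM with anti-IL34. Ttr, the transthyretin gene of the choroid plexus, varied from animal to animal, at 0.251, 0.372, 0.0656 and 43.4 CPM with anti-gp120 and 0.0646, 2.38, 13.3 and 105 CPM with anti-IL34. It was high in control animal 15 and in anti-IL34 animals 11 and 24, and it did not pass (log2 fold change 3.93, SE 2.34, Benjamini-Hochberg adjusted edgeR p 0.999). The summed choroid plexus and ependymal genes ran from 259 to 408 CPM with anti-gp120, highest in animal 15, and from 295 to 552 CPM with anti-IL34, highest in animal 24, and their part in the results was not tested.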

How the data were processed

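The authors deposited a table of raw read counts per gene, 1 column per library, with a gene length per row, and a sample sheet giving each library's animal and sex. Per the submitters' processing notes, the tools were STAR 2.7.5c, featureCounts 1.6.3 and R 4.4.0, with build GRCm38; their settings are not given in the sources used here. The deposited length equals the whole GENCODE M21 gene span for 51183 of the 51498 IDs matched of 51752, so genes that overlap can share reads, and use of strand is not stated. The 6 count columns without a labelled sample were not used.

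Counts were tested with the quasi-likelihood test of edgeR 4.0.16 (R 4.3.3), with TMM scaling, the default filter on low counts, adjustment by Benjamini-Hochberg and a term for sex, each comparison on its own libraries, and the differences in joint fits. DESeq2 1.42.0, other scaling and filters, fits with no sex term, on males only or on all forebrain libraries, and fits without each animal were alternatives. A level for a list in an animal is a median log2 ratio after adding 0.5 CPM. Genes that may be named were those called, the members of the lists, Il34, Csf1 and Csf1r, the genes past the threshold in a test of a difference, and hosts of overlapping genes; the 10 of smallest p and the 5 of largest change in each direction were given in full, except that a few genes are not reported here. Lower genes outside the lists were grouped by function after their values were seen. The members and gene lists were chosen with earlier results of these data known. Within an arm each sample is a separate animal, and replicate pairs differed by more than counting noise (chi-square per degree of freedom 6.59 to 22.1 over 12 pairs).

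Forebrain and isolated microglia of 1 animal pair by its number: deviations from the arm means correlated across 16094 genes with a median r of 0.192 (0.0806 to 0.275, above 0.1 in 7 of 8 animals), beside -0.0402 between animals of 1 arm.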

Additional observations from a re-analysis of the deposited data

Results flagged for a closer look

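In 18 of 246 groups, each 1 gene in 1 arm of 4 animals, 1 animal stood far from the other 3, by a gap of more than 0.829 of the arm's range. Chance would give such a gap in about 1 in 20 independent groups, or 12.3 of 246. The groups are not independent, since all come from the same 8 animals and many of the genes vary together. The 18 and the 12.3 therefore make no test. Anti-gp120 animal 15 was the lowest of its arm for Cd33 (14.5 CPM), Adgre1 (6.09 CPM), Ikzf1 (6.27 CPM), Myo1f (4.46 CPM), Siglech (21.8 CPM), Pld4 (5.85 CPM), Cx3cr1 (46.2 CPM), Bin2 (3.74 CPM) and Csf1 (11.1 CPM). All but Csf1 are among the genes lower with anti-IL34. That animal was the lowest control in 66 of the 90 lower genes. Anti-gp120 animal 8 was the highest for Dock2 (12 CPM) and Fyb1 (13.5 CPM), also lower genes. Anti-gp120 animal 1 was the highest for the interferon-induced genes Rsad2 (2.00 CPM), Eif2ak2 (15.3 CPM) and Isg15 (1.07 CPM). In the anti-IL34 arm, animal 24 was the highest for Fcrl2 (8.65 CPM beside 8.38 to 8.40) and animal 10 the lowest for Golm1 (16.6 CPM). Ttr, not called, had 1 high animal in each arm, animal 15 (43.4 CPM) with anti-gp120 and animal 24 (105 CPM) with anti-IL34.

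The effect of the antibody differed from that of the deletion, by a test of the difference, for Il34 (1.58) and Lgals3bp (1.76), given with their adjusted edgeR p in the results. A test of the difference between isolated microglia and forebrain in the effect of the antibody called 17 genes with edgeR and Benjamini-Hochberg adjustment when libraries were fitted as independent. Both tissues come from the same animals, and 0 genes were called with the animal as a replicate block (4232 at an unadjusted edgeR p under 0.05). None of the 17 was called in forebrain alone, and the count also changed with single animals. Arsb (-1.18), a lysosomal sulfatase gene, had the smallest adjusted p (0.0115). The others with a lower estimate in microglia were Adra2a (-1.20), Gm36736 (-3.01), Med12l (-0.98), Gpr165 (-1.77), Cep68 (-0.74), Cd164 (-1.02), Bend3 (-1.32), Nrip1 (-0.95), Vipr1 (-1.06), Scoc (-1.07), Eef2k (-1), Gm11523 (-3.22), Ciart (-1.74), Ptger3 (-1.61) and Tmc7 (-0.82). Slc4a10 (1.51) was the 1 gene with a higher estimate in microglia. Med12l contains P2ry12 and P2ry13 on the other strand, which had estimates of -1.93 and -1.78 in the isolates. Overlapping genes can share reads, and the part of shared reads in the Med12l estimate was not tested.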

How the results depend on the processing

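The 123 forebrain calls were 124 with RLE scaling, 126 with no sex term and 119 with a stricter filter, but 202 with DESeq2, 204 in a fit over 15 forebrain libraries, 349 with no filter and 34 (31 lower, 3 higher) in males only, a fit of 5 libraries. Of the 123, 33 passed in all 7 of these, 3 of them higher genes. Leaving out 1 animal gave 25 to 126. Il34, at 0.07, turned to -0.016 in males only and lay between -0.021 (anti-IL34 animal 11 omitted) and 0.13 when 1 animal was left out, never passing. The 110 calls in isolated microglia became 1876 with DESeq2, 819 with no filter and 983 with no sex term, and 0 to 6905 without 1 animal. The 120 deletion calls became 381 with no filter and 55 to 117 without 1 animal. The 2 calls of antibody less deletion became 30 with DESeq2 and 114 with no filter, and 2 to 33 without 1 animal. The 17 calls of the tissue difference became 1095 with DESeq2, 48 with RLE scaling, 1352 with no filter, 0 with the animal as a replicate block (4232 at an unadjusted edgeR p under 0.05), and 0 to 5565 without 1 animal. The cause of these shifts was not tested. Depth limits low genes: Cxcl10 was at 0.131 CPM in anti-gp120 animal 8, the shallowest control library with 15487968 counts. It was lower still, at 0.0603 CPM, in anti-gp120 animal 15, with 16574137 counts.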
